A study of Mus musculus with 10 samples.

Results

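The regions described here were 18 windows of 2 kb of the mouse genome in which the bait break had been joined to other DNA repeatedly in cells with induced AsiSI and never in the other libraries of the study. A window was a 2-kb bin with 4 or more junctions summed over the 2 AsiSI libraries and 0 in the other 8 libraries. Junctions within 1 Mb of the bait, the immunoglobulin kappa locus and a hotspot on chromosome 3 were left out. Outside those areas the 10 libraries had junctions in 17178 such bins and the AsiSI libraries in 1616. The 18 windows held 122 junctions at 108 distinct positions, 58 in the AsiSI library and 64 in the library that also received DRB, which were 2.60% and 2.19% of their prey junctions. The windows were thus chosen by these junction counts, which are given as a description without a test.

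All 10 libraries came from Abelson-transformed pre-B cells of C57BL/6 background and LIG4-/- genotype, arrested in G1 with imatinib for 48 h. In all of them doxycycline at 1 µg/ml, added after 24 h of imatinib, induced a zinc-finger nuclease (ZFN) that made the bait break on chromosome 6. In the AsiSI group tamoxifen at 1 µM was added 20 h after doxycycline to induce AsiSI, and in the DRB_AsiSI group the transcription inhibitor DRB was also given, starting 2 h earlier. The other 8 libraries were untreated (2 replicates), etoposide at 50 µM for 2.5 h with 12 h of recovery (2 replicates), IFN, IFN with etoposide, DRB, and DRB with etoposide. The AsiSI group and the DRB_AsiSI group had 1 library each, so tests between them compare these libraries and not the conditions. Both AsiSI libraries were sequenced in a run of their own, and both alone received tamoxifen, so AsiSI, tamoxifen and the run cannot be told apart. The labels do not say whether the cells were 1 clone, and genomic junctions carry no expression with which to check the cell type.

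AsiSI is a rare-cutting restriction enzyme that recognises an 8-base palindrome rich in CpG and does not cut it when the CpG is methylated, so in mammalian cells its cuts gather in unmethylated CpG islands, many of them at gene starts. Translocation sequencing reads from a bait break into whatever DNA was joined to it, the prey. The prey coordinate marks the broken end that was used and the prey strand marks which side of the break was kept. DNA ligase IV seals the classical end-joining pathway. In its absence joints form by alternative end joining, which tends to trim the ends and to use short stretches of bases shared by both of them.

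The recognition sequence GCGATCGC was found in the reference promoters (250 bases before to 50 after each gene start, RefSeq, GRCm38.p6) of 3 windows. They are shown because they place the cut without reference to the junctions. The capitals mark the recognition sequence on the plus strand. The first lies at chr1:64121464-64121493 near a start of Klf7 (position -86). The second lies at chr2:156144249-156144278 in the promoter shared by Romo1 and Nfs1 (position -74 from the start of Nfs1). The third lies at chr9:106247863-106247892 near a start of Alas1 (position -144). Positions count from the start used for the reference promoter. By the outer gene ends, the Klf7 and Alas1 sites lie inside the gene, 866 and 76 bp from its end.
Klf7 site: ttttttttctcGCGATCGCttctctccccc
Romo1 site: cgtcgagctgaGCGATCGCagcggagaacg
Alas1 site: agcctaaggccGCGATCGCtggcggcccta

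The same joint recurred in both AsiSI libraries 7 times, with the same prey position, prey strand and last bait base. Of these joints, 6 lay beside a cut placed by the recognition sequence or fitted from the junctions and are shown with 20 bases of bait, then in capitals the bases that fit both bait and prey, then 20 bases of prey.
Rcor1 joint at 111039078: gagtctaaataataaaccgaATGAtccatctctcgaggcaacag
Rcor1 joint at 111039097: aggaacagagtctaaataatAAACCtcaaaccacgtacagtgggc
Rcor1 joint at 111039104: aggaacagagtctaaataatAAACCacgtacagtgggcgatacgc
Klf7 joint at 64121450: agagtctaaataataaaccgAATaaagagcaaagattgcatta
Klf7 joint at 64121452: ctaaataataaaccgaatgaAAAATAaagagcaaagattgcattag
Romo1 joint at 156144241: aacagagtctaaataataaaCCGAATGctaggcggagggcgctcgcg
These joints used overlaps of 3 to 7 bases. Their prey alignments differed in length between the libraries, such as 31 bp and 59 bp for the first Klf7 joint and 74 bp and 305 bp for the second. The seventh repeated joint, near S100pbp, had no overlap and a 28-base insert and is described with the pyrimidine-only reads below.

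**Figure D1:**
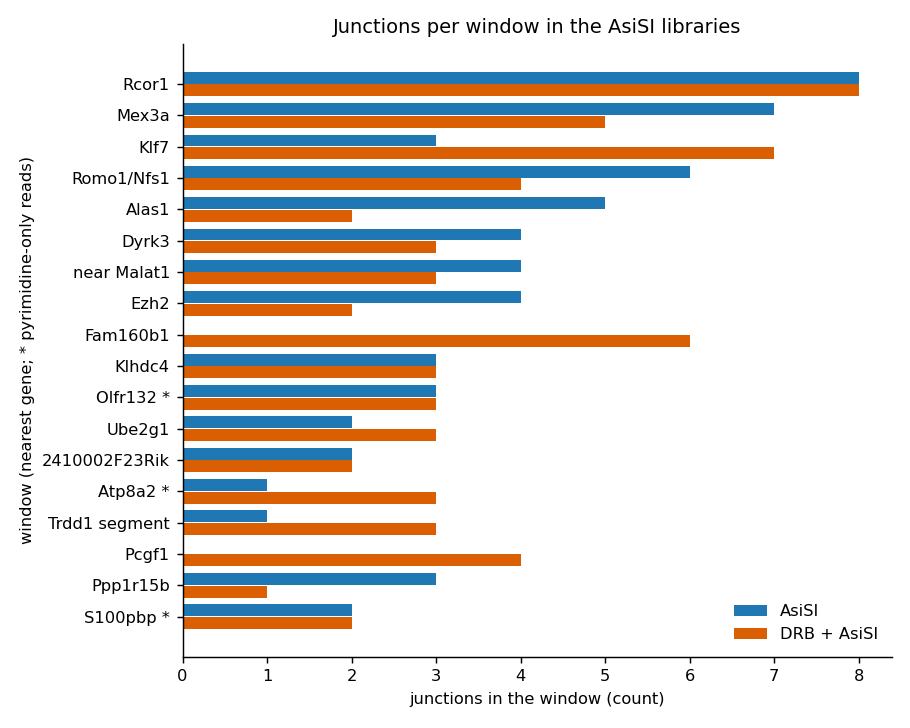
Horizontal bars give the number of junctions in each of the 18 windows (x axis, count) for the AsiSI library (blue) and the DRB with AsiSI library (orange), with windows named by the nearest gene and an asterisk for windows of pyrimidine-only reads. The Rcor1 window had 8 junctions in each library, and the Fam160b1 and Pcgf1 windows had junctions in the DRB_AsiSI library alone.

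The window with the most junctions, chr12:111038000-111039999, spanned the start of Rcor1, with a fitted cut 277 bp before it. Rcor1 is a scaffold protein of the CoREST corepressor complex. The window had 8 junctions in the AsiSI library and 8 in the DRB_AsiSI library. Of these 16, 15 lay within 100 bp of a cut fitted at 111039090 and 1 lay 783 bp to its left. All 6 junctions left of that cut were on the minus strand and all 10 right of it on the plus strand. The interquartile range of the positions was 23.8 bp, the narrowest of the 4 windows with 8 or more junctions.

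The window chr3:88530000-88531999 had a fitted cut 357 bp before the start of Mex3a, which encodes an RNA-binding protein, and overlapped the end of the noncoding gene Gm38618. It had 7 and 5 junctions, at 12 different positions. Of the 12, 11 lay within 100 bp of the fitted cut and 5 within 10 bp. The nearest ends on either side were 4 bases apart.
Mex3a left end: gcccgagcccgtggactccg
Mex3a right end: cgcgcgcgggaggagggagg
The last base of the left end and the first 3 bases of the right end were those of the recognition sequence in the 1 placement across the 4 unread bases, out of 11 tried, that no read base contradicted. The unread bases themselves were not known here, as no genome sequence was used.

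The Klf7 window, chr1:64120000-64121999, named for a Krüppel-like transcription factor, had 3 and 7 junctions. All 10 lay to the left of the recognition sequence at chr1:64121475-64121482, and 9 of them were on the minus strand, reading away from it. The distances ran from 10 bp to 524 bp with a median of 27 bp. No AsiSI-library junction was found in the adjacent 2 kb on the right either, so at this site only the left end was recovered.

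The Romo1 window, chr2:156144000-156145999, covers a promoter shared with Nfs1. Romo1 encodes a small mitochondrial membrane protein linked to reactive oxygen species and Nfs1 the cysteine desulfurase of iron-sulfur cluster synthesis. It had 6 and 4 junctions, 4 left and 6 right of the site at chr2:156144260-156144267. The 7 junctions within 100 bp all read away from the site. The 3 junctions farther out, at 169, 387 and 612 bp on the right, were on the minus strand and read toward it.

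The Alas1 window, chr9:106246000-106247999, covers the start of the gene for the first enzyme of haem synthesis. It had 5 and 2 junctions, 5 left and 2 right of the site at chr9:106247874-106247881. Of the 7, 6 read away from the site. Distances ran from 3 bp to 1350 bp, the largest distance in any window with a placed cut.

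In the 3 windows with a recognition sequence, 22 of 27 junctions read away from the centre of the sequence (81.5%, exact 95% interval 61.9 to 93.7%). All 19 junctions within 100 bp did so. None of the 27 lay within 1 bp of the centre, and 5 lay within 10 bp. A cut fitted from strand and position alone, taken as the point that left most junctions reading outward, fell 1 bp from the centre of the sequence at Romo1 and Alas1 and 10 bp from it at Klf7. At Romo1 and Alas1 it was the middle of several points that fitted equally well. At Klf7 the search ended just past the rightmost junction, short of the centre. The distances therefore do not measure how precise the fit is. The intervals in this report cover counting error only.

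For 9 further windows with both strands present, the fitted cut was the one available. Where several points fitted equally well the middle one was taken, so the nearest distances on either side were then set by the fit. Over the 12 windows with a placed cut, 84 of 93 junctions read away from it (90.3%, exact 95% interval 82.4 to 95.5%), a share that the fit itself raises. With the cut placed at the median position the share was 67.7%, and at the most frequent position 48.4%. Of the 93, 44 lay right and 49 left of the cut, a split that depends on the fit in the 9 fitted windows. In the 3 windows with a recognition sequence, 8 lay right and 19 left, 10 of the latter at Klf7. The median distance was 22 bp and the interquartile range ran from 11 to 79 bp. Within 100 bp lay 71 junctions (76.3%), and 8 lay beyond 500 bp. These figures include the loosely fitted Ezh2 and Pcgf1 windows described below, with 0 of 6 and 1 of 4 junctions within 100 bp.

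**Figure D2:**
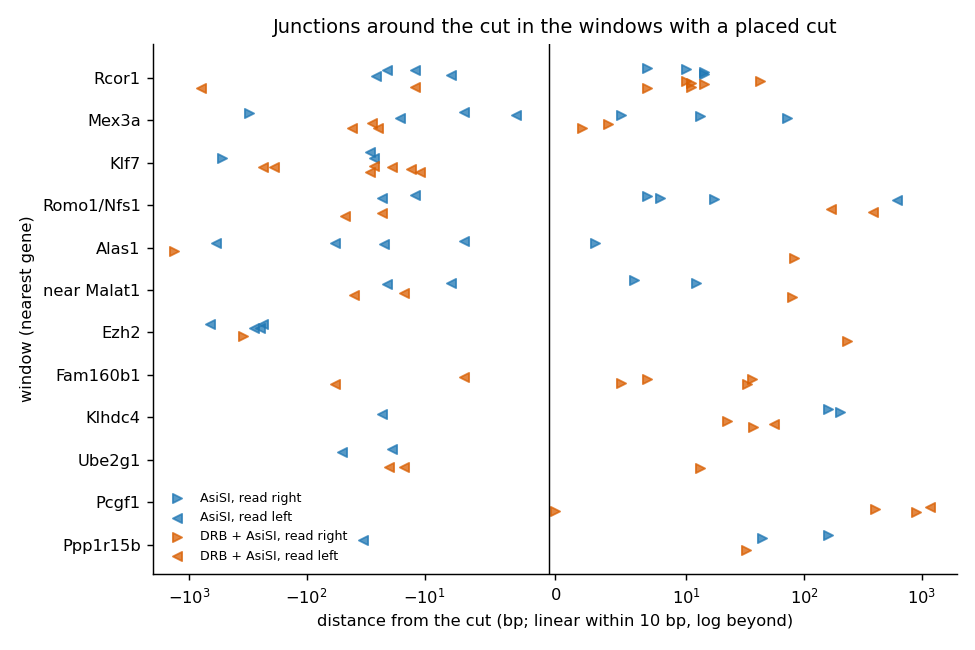
Each point is 1 junction, placed by its distance from the cut (x axis, bp, negative to the left; linear within 10 bp and logarithmic beyond) in each of the 12 windows with a placed cut, coloured by library, with the marker pointing the way the prey read ran. Markers left of the line point mostly left and those right of it mostly right, 84 of 93 in all.

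The fitted windows differed in how tightly their junctions clustered. At Fam160b1 (chr19:57360000-57361999) all 6 junctions lay 5 to 56 bp from the fitted cut and all read outward. At Ube2g1 (chr11:72606000-72607999), a gene for a ubiquitin-conjugating enzyme, the 5 junctions lay 13 to 49 bp away. In the window chr19:5804000-5805999, which is 1403 bp from the noncoding RNA gene Malat1, all 7 junctions lay 6 to 79 bp away and read outward. Klhdc4 (chr8:121828000-121829999), a gene for a kelch-domain protein, had 6 junctions at 22 to 203 bp. Ppp1r15b (chr1:133130000-133131999), which encodes a regulatory subunit of the phosphatase that acts on eIF2α, had 4 junctions at 32 to 159 bp.

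In the 2 windows on chromosome 6, the bait chromosome, the junctions fixed the fitted points only loosely. At Ezh2 (chr6:47594000-47595999), the catalytic subunit of Polycomb repressive complex 2, the 6 junctions lay 232 to 661 bp from the fitted point. That point was the middle of a gap of 465 bases with 1 junction to its right. The lack of junctions within 100 bp of it therefore came from the fit. At Pcgf1 (chr6:83076000-83077999), a subunit of a Polycomb repressive complex 1, the 4 junctions were spread over 1169 bp. The fitted point there was the leftmost junction itself. The adjacent bin, chr6:83078000-83079999, had 12 junctions in each AsiSI library around a fitted cut at 83078416. It was not a member because 1 junction of the other 8 libraries fell in it.

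For 6 windows no cut could be placed because all junctions were on 1 strand. At Dyrk3 (chr1:131138000-131139999), which encodes a dual-specificity kinase, all 7 junctions, 4 and 3, were on the plus strand and spread over 1458 bp. The window chr14:54112000-54113999 held Trdd1, a diversity segment of the T-cell receptor delta locus that V(D)J recombination joins. Its 4 junctions, 1 and 3, were all on the minus strand, at 37, 68, 820 and 1425 bp before the segment. In the window of the gene 2410002F23Rik (chr7:44246000-44247999) all 4 junctions were on the plus strand within 12 bp, and their overlaps were 2, 8, 8 and 9 bases. The joint with the longest of these overlaps is shown, with the shared bases in capitals.
2410002F23Rik joint at 44246812: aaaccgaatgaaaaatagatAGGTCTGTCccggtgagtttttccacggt

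The other 3 windows without a placed cut consisted of short pyrimidine-only reads. They lay 19385 bp from the olfactory receptor gene Olfr132 (chr17:38110000-38111999), inside Atp8a2, a phospholipid flippase gene (chr14:59836000-59837999), and inside S100pbp (chr4:129162000-129163999). Their 14 junctions were all on the minus strand, and 100% of the prey bases as read were C or T. An Olfr132 prey read and the repeated S100pbp joint, its inserted bases in capitals, are shown because they differ from every sequence above.
Olfr132 prey read: ttctctcttcctcccttcttttctttccct
S100pbp joint at 129162239: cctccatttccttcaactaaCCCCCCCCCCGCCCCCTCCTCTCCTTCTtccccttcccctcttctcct
Prey alignments in these windows were 26 to 52 bp long, and 13 of the 14 joints had inserted bases, up to 30. Of these 14 reads, 13 came from the edge of the flow cell (read x coordinate over 29000). Such edge reads made up 6.08% and 7.71% of prey outside kappa and the hotspot in the AsiSI libraries, against 0.442 to 1.57% in the other 8 libraries. With all edge reads left out, 15 windows met the rule and these 3 did not, so these 3 reached the threshold only with edge reads. What produced the edge reads was not tested. Without these 3 windows, 15 windows and 108 junctions remained.

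Most windows lay at gene starts or ends. Of the 18 windows, 13 (72.2%) had their cut, or their median junction where no cut was placed, within 1 kb of an end of a protein-coding gene, and these were 13 of the 15 windows without pyrimidine-only reads. Among 1598 other prey bins of the AsiSI libraries, taken at their median junction, the share was 7.88%. Lying inside a gene was less distinct, with 66.7% of windows against 46.4% of other bins. Prey bases in the windows had a median GC content of 61.4%, against 49.3% and 47.9% in other prey of the same libraries. None of the 20 B-lineage genes, the 20 genes of recurrent leukaemia translocations and the 20 genes of break response and end joining examined had a window in it or within 5 kb.

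Junctions near promoter recognition sequences were counted in all libraries, since that sequence was not part of the rule. Searching both strands of 32851 reference promoters found it in 73 (0.222%), at 62 places. Of the 11 windows that a reference promoter overlapped, 3 held it. Within 1 kb of these 62 places lay 37 of 905 prey junctions in the AsiSI library (4.09%, exact 95% interval 2.89 to 5.59%) and 32 of 1155 in the DRB_AsiSI library (2.77%, 1.90 to 3.89%). In the other 8 libraries the share was 0% in 6, 0.0678% in etoposide replicate 1 and 0.0608% in IFN with etoposide. A count of 0, read as fewer than 3 counts of the total, allowed a share of up to 0.0909% in the deepest of those 6 and 1.78% in the shallowest. Because 27 of the 69 junctions in the AsiSI libraries lay in windows chosen for having them, these shares are not tested. With the 3 sites in windows and all window junctions left out, 59 places remained. There the share was 23 of 847 (2.72%, exact 95% interval 1.73 to 4.05%) in the AsiSI library and 19 of 1091 (1.74%, 1.05 to 2.71%) in the DRB_AsiSI library, against at most 0.0678% in the other 8. The groups did not overlap, and the mean shares differed by 2.22 percentage points (exact permutation test over 10 libraries, two-sided p = 0.0444, the smallest these numbers allow).

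The AsiSI libraries had junctions at 20 of the 62 places, and 42 of the 69 junctions there lay outside the 18 windows, at 17 places. At the Lpcat3 promoter, a phospholipid acyltransferase gene, there were 9 and 7 junctions, and 2 in the other 8 libraries kept it from being a window. At Plk3, a Polo-like kinase gene, there were 1 and 4.

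**Figure D3:**
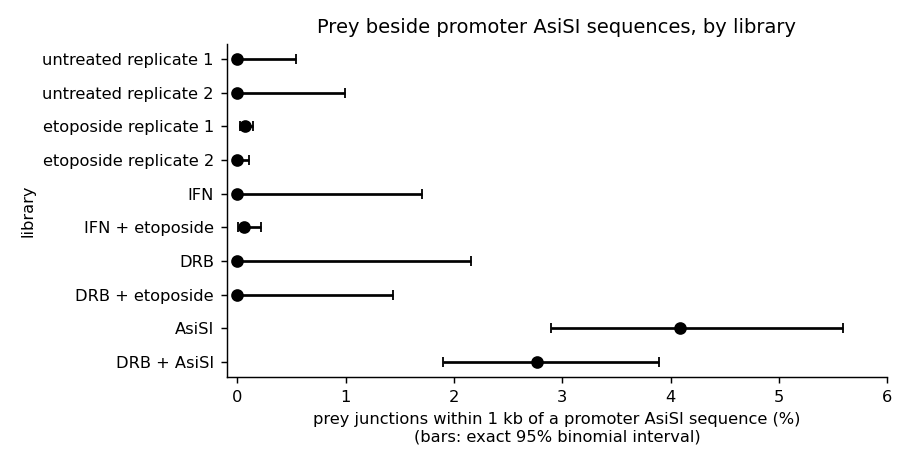
Points give, for each of the 10 libraries, the share of prey junctions outside kappa and the hotspot that lay within 1 kb of a promoter AsiSI sequence (x axis, %), with exact 95% binomial intervals. The AsiSI libraries stand at 4.09% and 2.77% and all others at or below 0.0678%, with wide intervals for the shallow libraries.

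The region around the windows was also compared. Prey 2 to 20 kb from a cut, or from the median junction in windows where no cut was placed, and outside the windows made up 7 of 847 junctions in the AsiSI library (0.826%, exact 95% interval 0.333 to 1.70%) and 2 of 1091 in the DRB_AsiSI library (0.183%, 0.0222 to 0.661%). In the other libraries the share was 0% in 4 and otherwise 0.0678 to 0.392%, and the counts of 0 allowed shares of up to 0.442 to 1.78% (3 counts of the total). Pooled over libraries, 0.464% against 0.0860% differed beyond counting error (two-sided Fisher's exact test, p = 0.000294). Over the libraries' own shares it did not pass (exact permutation test, two-sided p = 0.0889), and the DRB_AsiSI share lay inside the range of the others. Of the 9 flank junctions, 3 lay beside the T-cell receptor window. Counted per junction near the bait, the difference turned to -0.0168 percentage points (Fisher's exact test p = 0.549).

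At the joint itself, overlaps prevailed. Of the 122 junctions, 86 had an overlap of at least 1 base, 72 (59.0%) of 2 or more and 31 of 4 or more, with a maximum of 10. Blunt joints numbered 15 and joints with inserts 21 (17.2%). The bait end had been trimmed by a median of 25 bp, against 32 and 29 bp in other prey of the AsiSI and DRB_AsiSI libraries.

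Overlap shares did not differ detectably from those of other prey in the same library. In the AsiSI library 37 of 58 window junctions (63.8%) had an overlap of 2 or more, against 524 of 847 other prey (61.9%). In the DRB_AsiSI library the figures were 35 of 64 (54.7%) and 653 of 1091 (59.9%). Each of the 4 comparisons of overlaps and inserts was a two-sided Fisher's exact test, adjusted over the 4, and all had an adjusted p of 0.889. With other sets of prey the DRB_AsiSI comparison passed. Set against prey of the other 8 libraries, which come from other sequencing runs, overlaps were rarer in the DRB_AsiSI windows by a difference of -17.2 percentage points (Fisher's exact test, unadjusted p = 0.00334). Against kappa prey of the same library that difference was -17.6 points (Fisher's exact test, unadjusted p = 0.00424). Both comparisons kept the pyrimidine-only windows, whose joints had no overlap. Without those windows the DRB_AsiSI share was 35 of 56 (62.5%). The share was 71.8% in prey of the other 8 libraries and 72.3% in kappa prey, and these differences from 62.5% were not tested.

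Inserts were found in 10 of 58 window junctions in the AsiSI library (17.2%) and in 167 of 847 other prey (19.7%). In the DRB_AsiSI library they were found in 11 of 64 (17.2%) and 225 of 1091 (20.6%). The window figure came mainly from the pyrimidine-only reads, which supplied 13 of the 21 inserts. Without those 3 windows the insert share was 4 of 52 (7.69%) and 4 of 56 (7.14%), a difference from other prey of -12.0 and -13.5 percentage points (Fisher's exact test, unadjusted p = 0.0291 and 0.0100). Once prey reads of 80% or more C and T were left out of both sides, the differences were -8.05 and -6.37 points and did not pass (Fisher's exact test, p = 0.161 and 0.221).

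**Figure D4:**
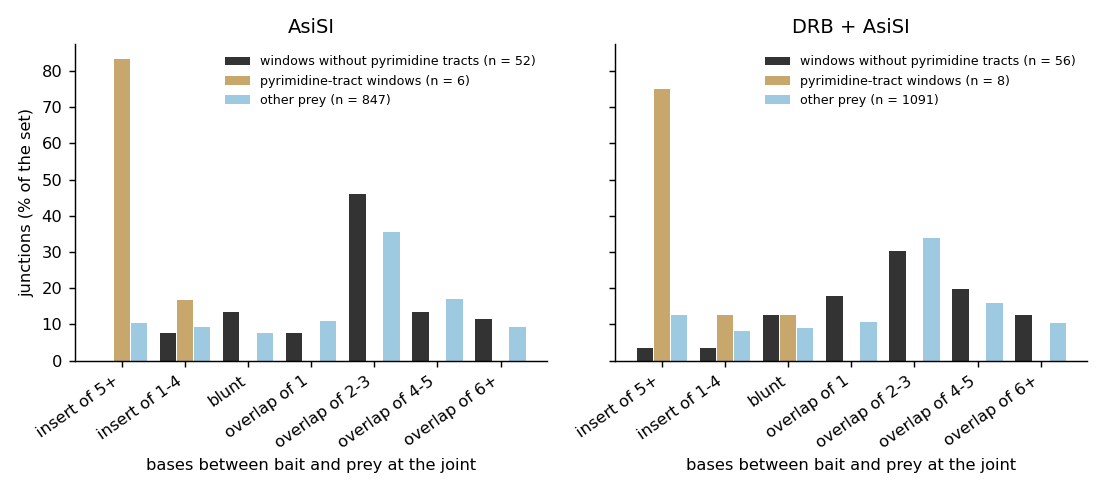
Bars give the share of junctions (y axis, % of the set) by class of joint, from inserts of 5 or more bases to overlaps of 6 or more, for windows without pyrimidine tracts, pyrimidine-tract windows and other prey in each AsiSI library. The pyrimidine-tract windows stand almost wholly in the insert classes, and in the other windows overlaps of 2 to 3 bases are the most frequent class in both libraries, as they are in other prey.

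DRB blocks the kinase that releases paused RNA polymerase II, and the comparison of the 2 AsiSI libraries asks whether joining to AsiSI breaks differed when transcription had been inhibited. The windows held 58 junctions per 7431 junctions within 1 Mb of the bait in the AsiSI library, or 7.81 per 1000. They held 64 per 10485 in the DRB_AsiSI library, or 6.10 per 1000. The ratio was 0.782 with a 95% interval of 0.548 to 1.12 (two-sided Fisher's exact test, p = 0.197), so a difference was not detectable at this depth. Kappa prey gave a ratio of 0.952 (0.886 to 1.02) and other prey 0.913 (0.835 to 0.999), and the interval of the windows contains both.

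This ratio depended on which library chose the windows. The 12 windows chosen with 3 or more junctions in the AsiSI library alone gave 0.548 (0.365 to 0.824), and the 16 chosen in the DRB_AsiSI library alone gave 1.08 (0.732 to 1.59). A choice made on one library's counts favours that library. Of those 12 windows, 11 had a junction in the DRB_AsiSI library, and 11 of those 16 had one in the AsiSI library. Among bins chosen in the same way but with junctions in the other 8 libraries, the figures were 11 of 15 and 14 of 14. With the hotspot on chromosome 3 admitted to the rule the ratio was 0.709 (0.532 to 0.945, Fisher's exact test p = 0.0204).

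**Figure D5:**
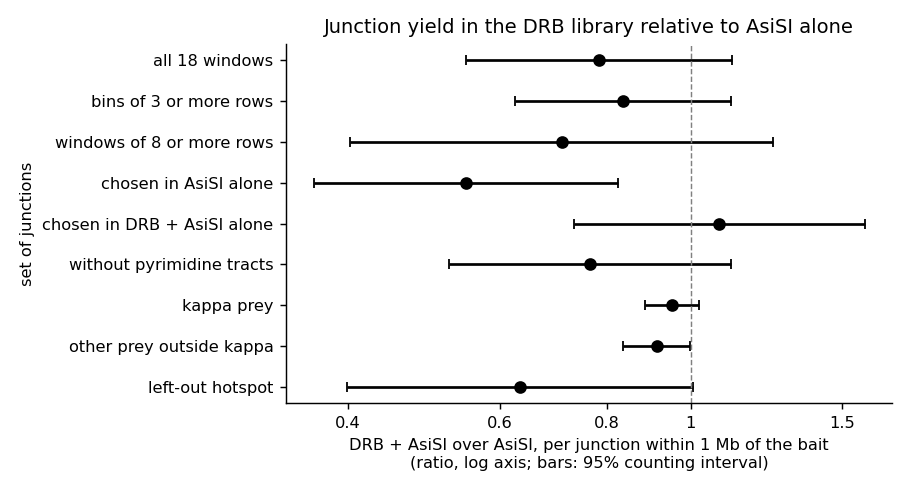
Points give the DRB with AsiSI over AsiSI ratio of junctions per junction within 1 Mb of the bait (x axis, log scale) with 95% counting intervals, for the 18 windows, other choices of windows, and 3 sets of prey outside them. The interval for the 18 windows runs from 0.548 to 1.12 and includes 1. Windows chosen in the AsiSI library alone lie below 1, but that choice favours the AsiSI library.

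Window by window, 12 of the 18 had a lower yield per junction near the bait in the DRB_AsiSI library and 6 a higher one. The 12 include Rcor1, Olfr132, Klhdc4, S100pbp and 2410002F23Rik, whose counts were equal in the 2 libraries. Equal counts give a ratio of 0.709 by depth alone. The median ratio of the windows was this same 0.709, against 0.921 over all 173 prey bins tested. Across those 173 bins 0 passed an adjusted p of 0.05 (Fisher's exact test with Benjamini-Hochberg adjustment, 0% called), the windows included. Windows of few junctions could hardly pass, as even 0 against 4 at Pcgf1 gave an unadjusted p of 0.147 (Fisher's exact test). The lack of calls therefore does not show equal yields. At an unadjusted p under 0.05 there were 12 bins, or 6.94%, and 1 of the 18 windows, which is near that background. That window was Fam160b1, with 0 junctions in the AsiSI library and 6 in the DRB_AsiSI library (Fisher's exact test p = 0.0453, adjusted p = 0.695). Among the 4 windows with 8 or more junctions the ratio was lowest at Romo1 with 0.472 (0.133 to 1.67) and Mex3a with 0.506 (0.161 to 1.60), was 0.709 at Rcor1 (0.266 to 1.89) and highest at Klf7 with 1.65 (0.428 to 6.40). All 4 intervals included 1 and overlapped one another.

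The form of the joints in the windows also did not differ detectably between the AsiSI libraries. The insert share differed by -0.0539 percentage points, DRB_AsiSI minus AsiSI (95% interval -13.8 to 13.3, two-sided Fisher's exact test p = 1). The share with 2 or more overlapping bases differed by -9.11 points (-25.6 to 8.21, Fisher's exact test p = 0.359). The share within 100 bp of the cut was 34 of 45 and 37 of 48, a difference of 1.53 points (-15.5 to 18.7, Fisher's exact test p = 1). The junctions lay right of the cut in 18 of 45 and 26 of 48.

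The threshold of the rule left similar bins just outside. With 0 in the other 8 libraries, 6 bins had exactly 4 junctions and were members, and 21 bins had 3 and were not, of which 17 had junctions in both AsiSI libraries. Another 20 bins reached 4 junctions but had at least 1, and up to 143, in the other libraries. Of the 18 windows, 16 had junctions in both AsiSI libraries.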

How the data were processed

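Junctions came from linear-amplification-mediated translocation sequencing on the MiSeq, analysed by the authors with the assay's standard pipeline, per the labels' protocols. The authors' deposited tables list 1 junction per row with position, strand, read and alignments, as their headers show. No value in them is normalized. The builds mm10 and GRCm38.p2, and bedtools as a tool, are named in the submitters' processing notes. The aligner is not given in the sources used here. Gene positions and promoters came from RefSeq (GRCm38.p6).

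The AsiSI libraries held 9662 and 13404 junctions and the other 8 libraries 2039 to 11719. Off the main chromosomes 83 were left out. Junctions at one position may be PCR copies, so intervals cover counting error only. Inserts and overlaps were computed from read coordinates. In the windows with a recognition sequence the cut was its centre. Otherwise it was the point leaving most junctions reading outward, or the middle of such points where several tied. Tests were Fisher's exact and exact permutation tests (Python 3.11.15, scipy 1.17.1). The per-window test was tested on simulated counts, most of them larger than those of the windows. Alternatives covered bins, thresholds, denominators and repeated positions. Windows named were the 12 with the most junctions, those with extreme ratio, spread or a call, and those on chromosome 6. The remaining 5 were named to account for all. The nearest coding gene of 1 window is not reported here. Malat1, Nfs1 and Trdd1 were named after their values were seen. The windows and gene lists were chosen with earlier results of these data known.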

Additional observations from a re-analysis of the deposited data

How the results depend on the processing

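The number of windows was 39 with 3 or more junctions and 4 with 8 or more, and stayed within 12 to 23 under every other choice of bin, threshold or repeated position, including 18 to 22 with 1 untreated or etoposide replicate left out. The DRB_AsiSI over AsiSI ratio kept its direction and did not pass under 11 of 14 alternatives (0.709 to 0.857). It was 0.709 and passed with the hotspot included, 0.548 and passed for windows chosen in the AsiSI library alone, and 1.08 for those chosen in the DRB_AsiSI library alone. No window was called under any of the 3 settings, in a test that windows of few junctions could hardly pass.

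Differences in joint shares from other prey, in percentage points and for the AsiSI then the DRB_AsiSI library, moved with the comparison. For inserts they were -2.48 and -3.44, and turned to 5.52 and 6.49 against kappa prey and to 12.7 and 12.7 against prey of the other 8 libraries, where both passed (Fisher's exact test, p = 0.000252 and 0.000130). Inserts turned to 0.283 in the AsiSI library without the Rcor1 window and to 7.19 in the DRB_AsiSI library with 3 or more junctions, and reached -12.0 and -13.5 without the pyrimidine-only windows. For overlaps of 2 or more bases they were 1.93 and -5.17, and became -8.33 and -17.6 against kappa prey and -8.05 and -17.2 against the other 8 libraries, passing in the DRB_AsiSI library in both cases (p = 0.00424 and 0.00334, Fisher's exact test). In the AsiSI library overlaps gave -2.04 at 1 or more bases and -3.80 at 4 or more. In the DRB_AsiSI library they gave 2.09 at 4 or more, -11.6 with 3 or more junctions (Fisher's exact test, p = 0.0255) and 2.65 without the pyrimidine-only windows. The comparisons with kappa prey and with the other 8 libraries kept the pyrimidine-only windows. Without those windows the insert shares were 7.69% and 7.14%, against 4.50% in prey of the other 8 libraries. That difference and the cause of these shifts were not tested.

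The share read away from the cut fell to 67.7% and 48.4% with the cut at the median and the most frequent position. The flank difference of 0.378 points did not pass over libraries, was 0.177 and did not pass out to 50 kb, and was -0.0168 per junction near the bait. The cause was not tested. No paired analysis was possible because each AsiSI group has 1 library. The number of junctions limits every comparison, and alternatives with pyrimidine-only reads, edge reads, the T-cell receptor window, promoter sites outside the windows or permutation over libraries were chosen after seeing the data.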
